A study of Mus musculus with 9 samples.

Results

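XBP1 regions of mouse liver that carried a peak 6 h after surgery of either kind, and in no other unsilenced state, are described here. XBP1 is a basic leucine zipper transcription factor of the unfolded protein response. When unfolded proteins build up in the endoplasmic reticulum, the sensor IRE1 splices the Xbp1 messenger RNA, and the spliced form encodes the active factor, which switches on genes for chaperones, for the degradation of misfolded proteins and for secretory traffic. Hepatocytes secrete most plasma proteins, and surgery sets off an acute-phase response, in which the set of plasma proteins they make changes.

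Binding was mapped by ChIP-seq (precipitation of cross-linked chromatin with an anti-XBP1 antibody, followed by sequencing), in liver of wild-type C57Bl6-J mice operated on at 8 weeks of age. The livers were taken 6 h and 48 h after partial hepatectomy (removal of most of the liver), at the same times after sham surgery (incision and handling of the lobes with no tissue removed), and in the basal state. A further silenced liver, 6 h after hepatectomy, had received an adenovirus expressing a short hairpin RNA against XBP1 7 days earlier. Silenced livers 48 h after hepatectomy and in the basal state, treated in the same way, were used only for a comparison below. Clodronate liposomes, which deplete macrophages, went before the virus, and for the unsilenced livers the labels leave unstated if liposomes or the control virus were given. There was 1 library per condition, and the number of animals behind it is not given in the labels. No difference could therefore be set against a spread between animals. The values describe these libraries, and intervals are exact Clopper-Pearson 95% intervals that cover counting error only.

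The regions were chosen from the peak calls themselves. Peaks of the 5 unsilenced lists that overlapped by at least 1 bp were merged into 28099 regions. Of these, 16732 had a peak in both 6 h lists, 14344 of them had none in the basal list, and 9422 had none in either 48 h list as well (33.5% of all merged regions). These 9422 are called transient. From them, 8733 regions overlapped no peak of the silenced 6 h list, and these are the silencing-sensitive transient regions. They made up 31.1% of the merged regions, covered 4.59 Mb and had a median width of 476 bp (quartiles 399 and 594 bp). The other 689 transient regions overlapped a silenced 6 h peak and are called kept. The name silencing-sensitive stands for the absence of a called peak. The silenced list held 4325 peaks, against 22071 in the unsilenced list of the same state, and fewer sites cannot be told apart from a shallower or weaker library, because the sources used here give no read numbers.

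In the unsilenced lists the number of peaks was 2482 in basal liver, 22071 and 23087 at 6 h after hepatectomy and sham, and 7212 and 4622 at 48 h after hepatectomy and sham. A transient region is thus also one that the shorter basal and 48 h lists did not contain. Among the unsilenced lists required to lack a peak, that of 48 h hepatectomy changed the count of members most. Without its requirement 10715 regions would qualify, against 9390 without that for the 48 h sham list and 8804 without that for the basal list. The requirement of a peak in both 6 h lists was not varied.

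The silencing-sensitive transient regions were sites of middling score. Each peak carries a score from the authors' list, read here as −log10 of its p-value, although no source used here states its scale. Ranks and percentiles do not depend on that scale. For a region with several peaks of a list the highest was used. The hepatectomy score had a median of 16.05 (quartiles 11.72 and 24.2, range 5.31 to 137.1), and the sham score a median of 15.26 (quartiles 11.21 and 19.92, range 5.27 to 95.9). Within its own list the median region stood at the 41.1 percentile after hepatectomy and at the 46.4 percentile after sham. The kept transient regions scored higher, with medians of 36.22 and 22.36, and the regions in both 6 h lists that also had a basal or 48 h peak (called recurring) higher still, with medians of 43.13 and 31.58. Presence in a list depends on the score, so these contrasts describe the choice of regions and are no test. A score of at least 20 in both 6 h lists left 1307 regions of this kind. In all, 5 silencing-sensitive transient regions stood in the highest decile of both 6 h lists.

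**Figure D1:**
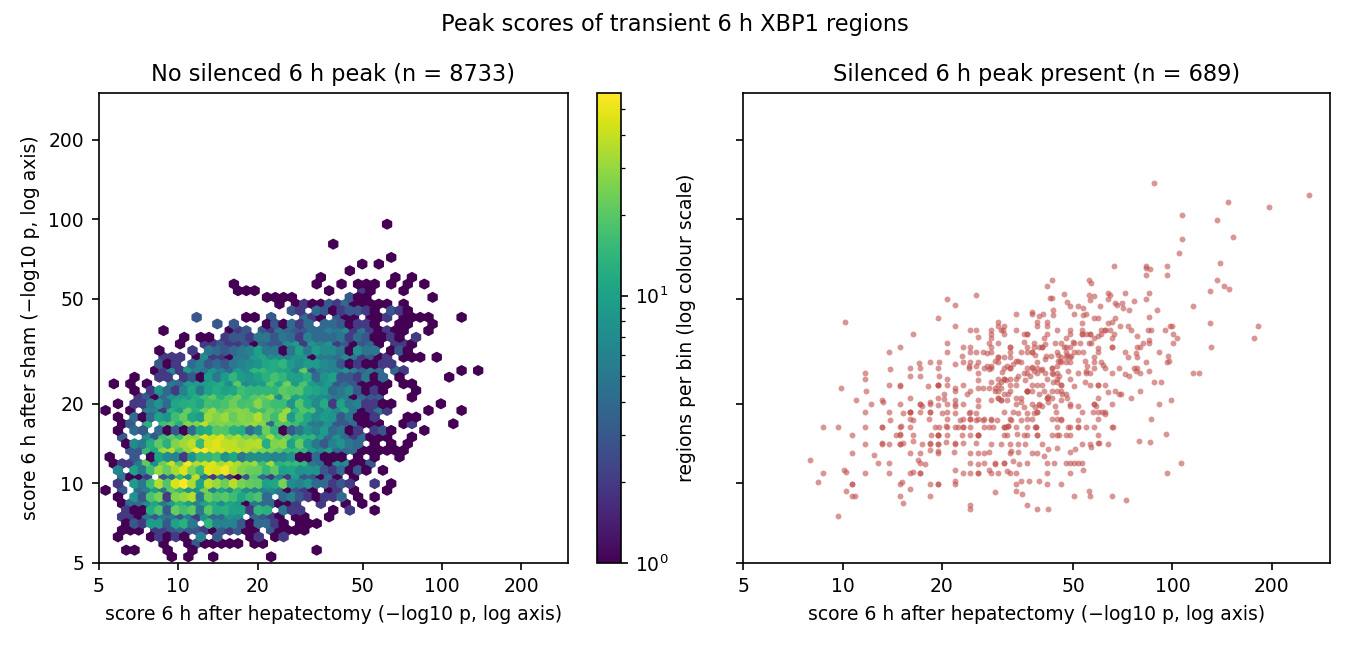
Score of each transient region 6 h after hepatectomy (horizontal) and 6 h after sham (vertical), both as −log10 p on log axes. The left panel counts the 8733 regions without a silenced 6 h peak per hexagonal bin, and the right panel shows the 689 kept regions as points. Kept regions lie further to the right and upwards, with medians of 36.22 and 22.36, against 16.05 and 15.26 in the left panel.

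The hepatectomy and sham peaks of a region had to overlap by the rule, which limits in advance how far apart they can lie. Their offsets are a description. A single peak from each list made up 8533 of the 8733 regions (97.7%, 97.4 to 98.0%). In these, the midpoints of the hepatectomy and sham peaks lay a median of 42 bp apart (quartiles 19.5 and 80.5 bp), and 82.5% lay within 100 bp. Peaks overlapped by at least 50% of both in 92.0% of the regions, and by fewer than 100 bp in 44 regions. The peak was 402 bp wide after hepatectomy and 392 bp after sham, as medians. Midpoints lay a median of 31.5 bp apart in kept and 38 bp apart in recurring regions, which scored higher.

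The scores and ranks of these regions after hepatectomy and after sham were only loosely related. Over the 8733 regions Pearson's r between the log10 values of both scores was 0.46. It was 0.51 over the kept and 0.79 over the recurring regions. These are descriptions across sites of the same 2 libraries, and the narrower range of scores in transient regions was not adjusted for. The percentile in the list was higher after hepatectomy than after sham in 46.2% of the silencing-sensitive transient regions (45.1 to 47.2%). It was higher in 61.4% of the kept ones (57.6 to 65.0%). Kept regions were set apart by a silenced library itself taken 6 h after hepatectomy. The contrast may therefore follow from the choice and is no test. Percentiles differed by at most 20 points in 5207 regions. In 435 regions the hepatectomy percentile was at least 40 points above the sham one, and in 545 regions the sham percentile was at least 40 points above that of hepatectomy. Of the 1000 regions with the highest score after hepatectomy, 403 were among the 1000 highest after sham. Both sets were drawn from 8733 regions, so this is more than unrelated ranks would share. None of the 10 highest after hepatectomy was among the 10 highest after sham, but sets of 10 are too small to describe the relation.

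The 10 sites with the highest hepatectomy scores are given next. They were picked by that score, so a lower rank after sham follows in part from the choice and supports nothing about the relation of both scores. Positions are in the mouse build mm9 and count from 1. The region with the highest hepatectomy score lay on chromosome 11 (119052871 to 119053443), with 137.1 at rank 862 after hepatectomy and 26.32 at rank 5807 after sham. On chromosome 8 (13158978 to 13159385) the score was 118.63 after hepatectomy and 27.42 after sham. Both ranked higher in the hepatectomy list than in the sham list. A second site on chromosome 11 (55268674 to 55269246) scored 116.88 at rank 1087 after hepatectomy and 18.72 at rank 9198 after sham. A site on chromosome 12 (111685677 to 111686169) had the same hepatectomy score of 116.88 but a sham score of 43.89. On chromosome 3 (148568223 to 148568871) the values were 110.03 after hepatectomy and 17.38 at rank 10676 after sham. The chromosome 3 site therefore stood in the highest decile of the hepatectomy list and near the middle of the sham list. The site on chromosome 17 (25376832 to 25377853) scored 108.3 after hepatectomy and 24.91 after sham. Scores of 98.03 after hepatectomy were found on chromosome 9 (70689932 to 70690518) and chromosome 11 (120366705 to 120367322), with 30.04 and 19.92 after sham. The remaining pair, on chromosome 14 (8848181 to 8848834) and chromosome 7 (19595970 to 19596696), scored 91.26 after hepatectomy and 51.7 and 43.38 after sham. All 10 were in the highest decile of the hepatectomy list, and of them that on chromosome 14 alone was also in the highest decile of the sham list.

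The 10 sites with the highest sham scores, picked in the same way by that score, ranked between 1927 and 12727 after hepatectomy. The highest sham score, on chromosome 6 (58982709 to 58983244), was 95.94 at rank 562, and the same region scored 60.96 at rank 2718 after hepatectomy. The next, on chromosome 4 (47662650 to 47663135), scored 40.06 after hepatectomy and 81.03 after sham. It also lay 174143 bp from the nearest other region, which made it the most isolated of the 20 sites named by score. On chromosome 2 a site at 94002160 to 94002734 scored 65.59 after hepatectomy and 71.28 after sham, and one at 76510850 to 76511381 scored 56.4 after hepatectomy and 68.11 after sham. The site at 76510850 was 602009 bp from the nearest recurring region. Sites on chromosome 3 (123056482 to 123057061) and chromosome 4 (126723487 to 126724003) scored 48.97 and 43.2 after hepatectomy, and 66.53 and 63.41 after sham. On chromosome 6 (73199030 to 73199581) the score was 78.31 after hepatectomy and 61.85 after sham, and a recurring region lay 159 bp away. The site on chromosome 12 (112352721 to 112353195) scored 65.23 after hepatectomy and 61.19 after sham. The most uneven of these was on chromosome 17 (25263845 to 25264400), with 16.05 at rank 12727 after hepatectomy and 57.25 at rank 1502 after sham. The last of the 10, on chromosome 6 (21755907 to 21756853), scored 35.88 after hepatectomy and 60.3 after sham.

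Some strong sites held nearly equal ranks after both operations, and the 5 most even are named here. They were picked by the evenness of their ranks, which is thus no result. Among the regions in the 100 highest after either operation, the most even was on chromosome 8 (112108052 to 112109323), at rank 2302 after hepatectomy and 2270 after sham. Those on chromosome 3 at 127491703 to 127492307 and at 116297441 to 116298027 had hepatectomy ranks of 2433 and 2248 and sham ranks of 2391 and 2305. The site on chromosome 18 (5784823 to 5785394) was at rank 1643 after hepatectomy and 1575 after sham, the highest pair of ranks among these 5. The fifth, on chromosome 17 (56345617 to 56346424), was at 2560 after hepatectomy and 2431 after sham. Between the 100 highest regions after hepatectomy and the 100 highest after sham, 21 were shared. Both sets were drawn from 8733 regions, so this too is more than unrelated ranks would share.

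Silenced 6 h peaks were found at a smaller share of transient than of recurring regions in each decile of score. The share with a silenced 6 h peak was 7.31% of the 9422 transient regions (6.79 to 7.86%) and 45.6% of the 7310 recurring regions (44.5 to 46.8%), with 24.0% of all regions in both 6 h lists and 14.9% of all merged regions. It was 2.56% of the 4835 regions of the hepatectomy 6 h list alone (2.14 to 3.05%). For the 5533 regions of the sham 6 h list alone it was 0.343% (0.207 to 0.536%). Both lie below the transient share. The share climbed with score in transient and in recurring regions, so these kinds were also set side by side within deciles of the hepatectomy score. In the lowest decile 0.45% of the transient regions were kept (0.12 to 1.15%), against 5.13% of the recurring ones (1.90 to 10.8%). In the sixth decile the shares were 5.02% (3.88 to 6.36%) in transient and 13.7% (11.0 to 16.8%) in recurring regions. In the highest decile they were 65.0% (55.8 to 73.5%) of 120 transient regions and 88.8% (87.4 to 90.2%) of 2097 recurring regions. The transient share was the lower in 10 of 10 deciles, also where deciles of the sham score were used. In the second hepatectomy decile the intervals overlapped, at 1.36% (0.75 to 2.27%) and 2.70% (0.74 to 6.78%). Regions of the hepatectomy list alone had shares near the transient ones up to the seventh hepatectomy decile. They had 0.56% in the lowest, 4.82% in the sixth and 8.45% in the seventh, against 8.48% of transient regions there. In the eighth it was 20.9% against 17.0%, and in the ninth 23.1% of 39 regions against 33.6%. By sham decile, regions of the sham list alone had lower shares, at 0.796% against 6.56% in the sixth. With the recurring shares weighted to the score deciles of the transient regions, 15.1% would be kept with hepatectomy deciles and 18.5% with sham deciles. Both weighted shares lie between the 7.31% of transient and the 45.6% of recurring regions. Within the highest decile the transient regions still scored lower, with a median of 85.42 against 118.85 in recurring regions, and had narrower hepatectomy peaks, at 625 bp against 777 bp. Overlap with silenced peaks was counted over the whole merged region, and recurring regions were wider. Their median width was 653 bp, against 476 bp in silencing-sensitive and 554 bp in kept transient regions. The weighting did not adjust for width. The silenced 6 h, basal and 48 h lists all took part in the choice of the regions, so no test was made of the contrast between transient and recurring regions.

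**Figure D2:**
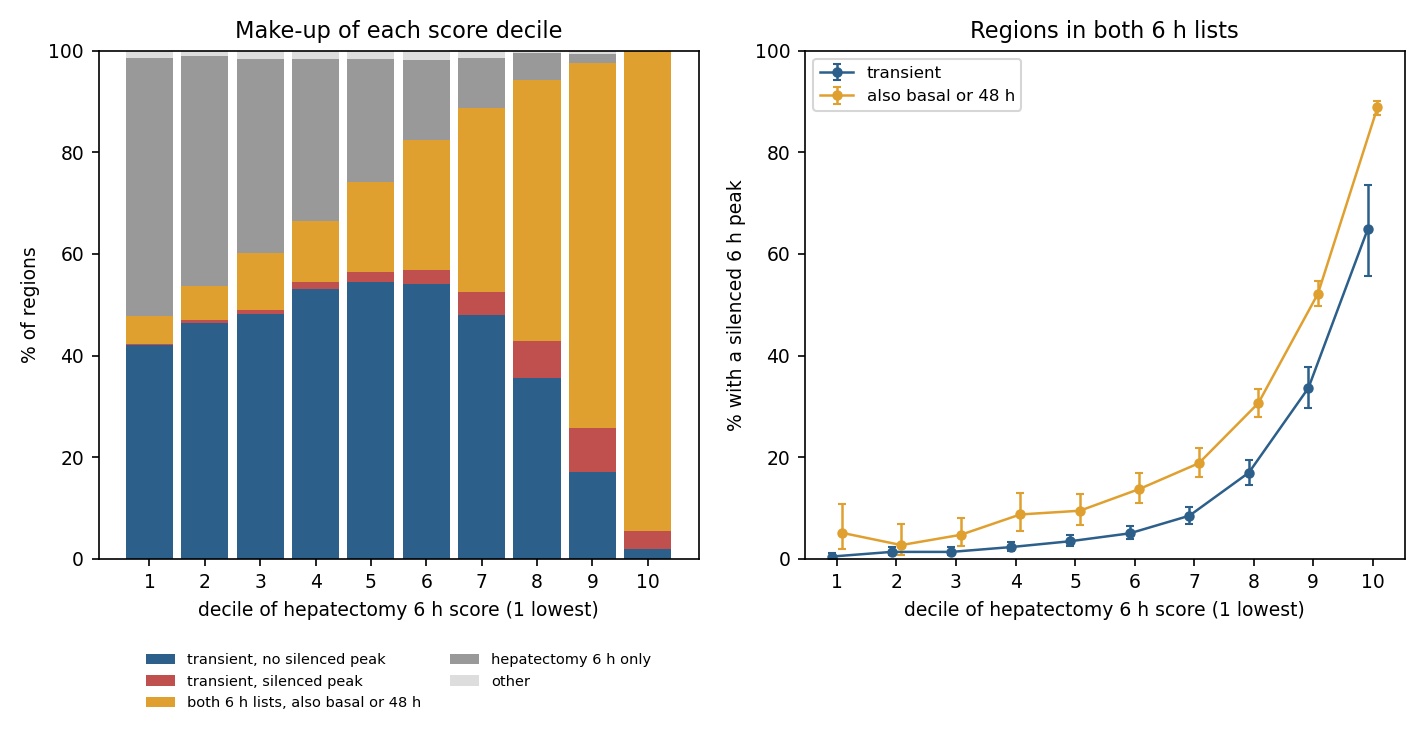
Left, make-up of each decile of hepatectomy 6 h score, as percent of merged regions with a hepatectomy 6 h peak. Right, percent of regions in both 6 h lists with a silenced 6 h peak, for transient and recurring regions, with exact 95% intervals. Transient regions without a silenced peak fill from 42.1% of the lowest to 54.5% of the fifth and 1.89% of the highest decile, and the transient line stays under the recurring line in all 10 deciles.

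The share of a decile taken by silencing-sensitive transient regions was largest in the middle of the score range. By count they numbered 885 in the lowest, 1212 in the sixth and 42 in the highest decile of the hepatectomy score. They made up 42.1% of the regions with a hepatectomy peak in the lowest decile, 54.5% in the fifth, 17.1% in the ninth and 1.89% (42 regions) in the highest. By sham score the shares were 36.1% in the lowest decile, 55.5% in the sixth and 2.70% in the highest. In the lower deciles regions of the hepatectomy list alone took most of the rest, at 50.8% in the lowest. In the highest decile recurring regions took 94.5%.

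The silenced livers of the other states had no part in the choice of regions, but the unsilenced lists of those states did. Every region with a basal or 48 h peak was removed by the rule, so low shares here follow in part from the choice. All 119 merged regions with a silenced basal peak, and 68 of the 70 with a silenced 48 h peak, were recurring. Of the 8733 silencing-sensitive transient regions, 2 overlapped a peak of the silenced 48 h hepatectomy list (0.0229%, 0.0028 to 0.0827%), against 0.249% of all merged regions, 0.418% of those in both 6 h lists and 0.93% of the recurring ones. One lay on chromosome 10 (98922055 to 98923093), with a silenced 48 h score of 8.6 beside 27.85 after hepatectomy and 23.06 after sham at 6 h. The other lay on chromosome 6 (133054843 to 133055369), with a silenced 48 h score of 8.55 beside 12.68 after hepatectomy and 9.46 after sham. At both places the silenced 48 h list had a peak where the unsilenced 48 h hepatectomy list had none. Both peaks scored a little below the median of 9.65 of the silenced 48 h list. The silenced basal library had a peak in 0 of the 8733 regions, which allows a share of up to 0.0344% at a floor of 3 counts, or 0.0422% by the exact interval, against 0.424% of all merged regions, 0.711% of those in both 6 h lists and 1.63% of the recurring ones. Neither list had a peak in any of the 689 kept transient regions, which allows up to 0.435% there at the same floor, or 0.534% by the exact interval. These silenced lists are short, with 102 and 177 peaks, and recurring regions score higher, so the shares are set side by side and nothing is read from their difference.

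A few regions lay close to the limit set by the rule. Just inside it, a region on chromosome 9 (44773273 to 44773974, scores 30.84 after hepatectomy and 17.55 after sham) lay 4 bp from a peak of the 48 h hepatectomy list, and one on chromosome 16 (93726505 to 93726866, scores 11.72 and 9.92) lay 7 bp from a 48 h sham peak. The next were 25, 26 and 39 bp from a 48 h peak, on chromosome 16 (94671199 to 94671559), chromosome 18 (74937783 to 74938472) and chromosome 19 (58091582 to 58091974). Just outside it, only kept regions were listed, and none left out for a basal or 48 h peak. Those on chromosome 11 (20295911 to 20296807) and chromosome 9 (55131247 to 55131827) overlapped a silenced peak by 133 and 146 bp. Those silenced peaks scored 11.22 and 5.87. The following 3, on chromosome 6 (21748478 to 21748898), chromosome 11 (20247532 to 20247886) and chromosome 16 (91044706 to 91045088), overlapped one by 208, 210 and 223 bp. Few regions were this near: 93 of the 8733 lay within 250 bp of a peak of any of the 4 lists they had to avoid, and 651 lay within 1 kb. The median distance to the nearest silenced 6 h peak was 63676 bp, and to the nearest peak of the 48 h hepatectomy list 33490 bp.

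Along the genome these regions lay among other XBP1 regions. The nearest other region of the 5 unsilenced lists was a median of 4342 bp away, and 65.6% (64.6 to 66.6%) had one within 10 kb. The share within 10 kb was 60.7% of the kept (56.9 to 64.3%), 61.9% of the recurring (60.7 to 63.0%), 61.3% of the hepatectomy-only and 62.0% of the sham-only regions. A recurring region lay within 10 kb of 29.3% of the silencing-sensitive transient regions (28.4 to 30.3%), against 25.9% of the recurring regions themselves (24.9 to 26.9%). The nearest neighbour was another silencing-sensitive transient region in 32.3% of them, close to their 31.1% share of all merged regions. The median distance to the nearest other region was longer in the other classes than the 4342 bp given above. It was 5815 bp for kept, 5473 bp for recurring, 5380 bp for hepatectomy-only and 5536 bp for sham-only regions. The intervals within 10 kb were 59.9 to 62.6% for hepatectomy-only and 60.7 to 63.2% for sham-only regions. That of the silencing-sensitive transient regions lay above those of all other classes shown. These differences were not tested.

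**Figure D3:**
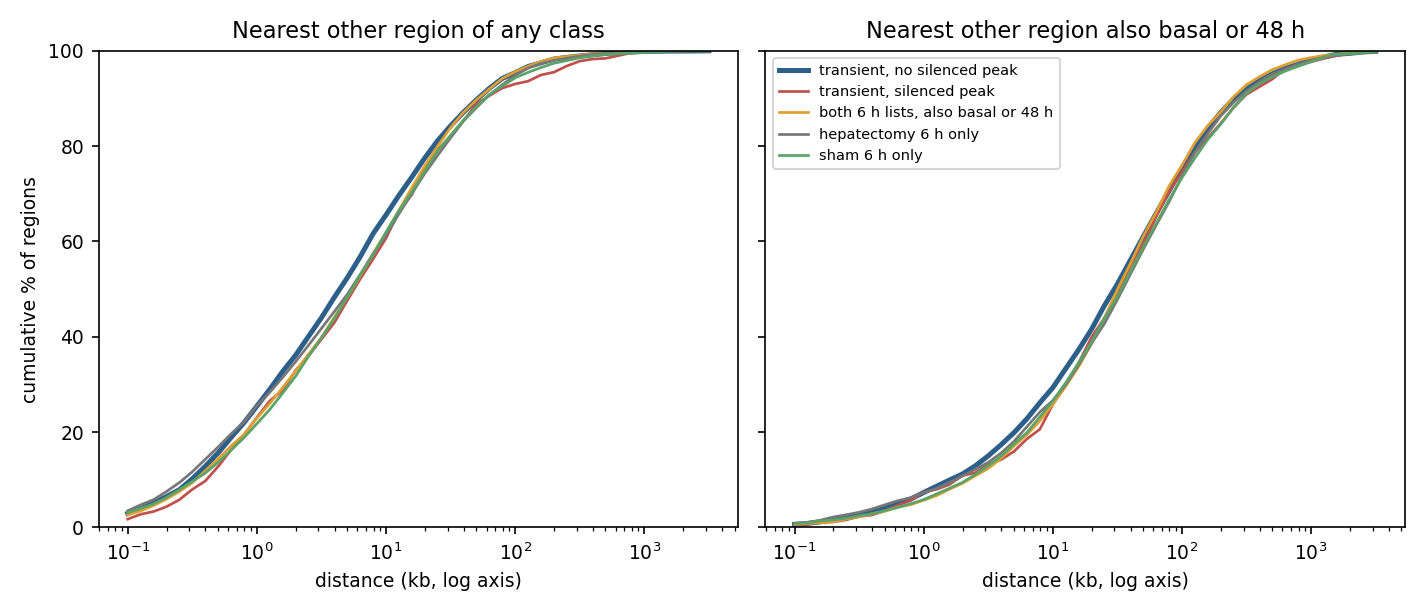
Cumulative percent of regions of each class by distance in kb (log axis) to the nearest other region of any class (left) and to the nearest recurring region (right). The thick line stands for the 8733 silencing-sensitive transient regions, with 65.6% within 10 kb of another region and 29.3% within 10 kb of a recurring one. The lines of all classes run close together. The thick line is the highest from 1259 to 79433 bp on the left and from 1259 to 39811 bp on the right.

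Every chromosome with more than 3 merged regions carried them in a similar proportion. They formed between 28.5% (chromosome 19, 299 regions) and 35.2% (chromosome X, 106 regions) of the merged regions of a chromosome. The interval for chromosome X, 29.8 to 40.9%, contained the share of 31.1% over all chromosomes, and that for chromosome 19 ran from 25.8 to 31.3%. Chromosome Y had 3 merged regions and none of this kind. Kept peaks were found in 3 of 109 transient regions of chromosome X (2.75%, 0.57 to 7.83%). This interval contained the 7.31% of all transient regions. The median hepatectomy score lay between 15.79 and 17.38 on all chromosomes that had such regions.

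**Figure D4:**
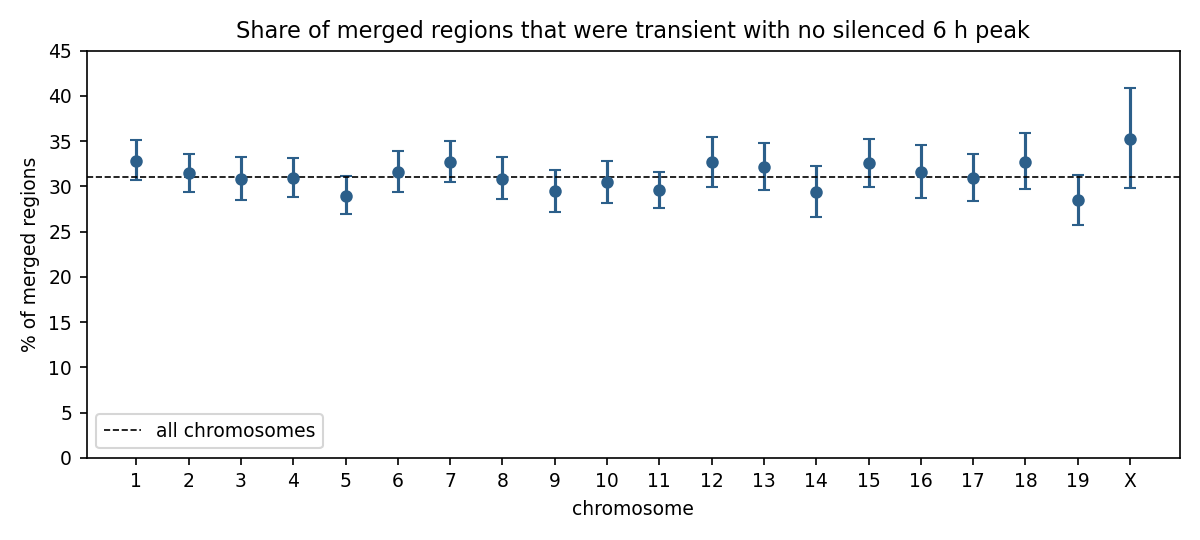
Percent of the merged regions of each chromosome that were transient without a silenced 6 h peak, with exact 95% intervals. The dashed line marks the share over all chromosomes, 31.1%, and the chromosomes lie between 28.5% and 35.2%.

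Most windows of the genome with such a region had a single one, and a few had many. In windows of 100 kb, 3141 of 5143 windows held 1 (61.1%), and 178 windows held at least 5, with 1011 regions in all. The window with the most lay on chromosome 3 (82800001 to 82900000), where 14 of 35 merged regions were silencing-sensitive and transient, 12 were in the hepatectomy 6 h list alone and 5 were recurring. Its 14 regions spanned 45.3 kb and were of modest score, from 7.77 to 38.97 after hepatectomy and from 5.87 to 28.73 after sham. The highest of them after hepatectomy lay at 82855241 to 82856587, with 38.97 after hepatectomy and 22.36 after sham. The widest of all 8733 regions was among them, at 82844123 to 82846235, with 2113 bp, 2 peaks from each 6 h list and scores of 25.66 after hepatectomy and 14.14 after sham. A region ending 30 bp before it, at 82843658 to 82844092, scored 7.77 after hepatectomy and 10.93 after sham.

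The second window, on chromosome 1 (193400001 to 193500000), was made up almost wholly of such sites. Of its 11 merged regions 10 were silencing-sensitive and transient, 1 was in the hepatectomy list alone, and none was kept or recurring. The 10 regions spanned 75.4 kb, with hepatectomy scores of 9.69 to 41.7 (median 26.1) and sham scores of 7.04 to 39.61 (median 18.5). The highest after hepatectomy lay at 193471396 to 193471896, with 41.7 after hepatectomy and 19.37 after sham. The highest after sham lay at 193456342 to 193456941, with 34.85 after hepatectomy and 39.61 after sham. These medians lay above those of all 8733 regions, 16.05 and 15.26, and those of the chromosome 3 window lay below them, at 11.72 after hepatectomy and 12.0 after sham. Single regions of either window lay on both sides of the overall medians.

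The next were a pair of windows with 9 such regions each. The window on chromosome 2 (167600001 to 167700000) had 21 merged regions, 6 of them recurring and 1 kept, and its 9 regions scored 9.69 to 37.34 after hepatectomy and 8.93 to 22.68 after sham. The window on chromosome 8 (120200001 to 120300000) had 14 merged regions, 1 of them recurring and 1 kept. There the scores were 6.91 to 34.85 after hepatectomy and 8.44 to 30.04 after sham. The windows were singled out by their counts, so these describe the densest places and are no test of clustering.

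The other wide regions were elsewhere. The next in width lay on chromosome 1 (62770056 to 62772108, 2053 bp) and chromosome 6 (149136647 to 149138547, 1901 bp), each with 1 hepatectomy peak over 2 sham peaks. On chromosome 11 (70783021 to 70784837, 1817 bp) it was the reverse, with 2 hepatectomy peaks over 1 sham peak. The fifth, on chromosome 12 (105645079 to 105646882, 1804 bp), scored 36.22 after hepatectomy and 10.94 after sham. Regions with more than 1 peak from a list were 200 of 8733 (2.29%).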

How the data were processed

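Per the submitters' processing notes, reads were handled with Bowtie2 and MACS 1.4.2 on mm9. The sources used here give neither settings nor whether the input served as control. Each deposited list gave chromosome, start, end and a score per peak. The deposited score was read as a −log10 p-value because its lowest value was between 4.33 and 5.27 in the 8 lists. No source used here states this scale, and MACS of this version usually writes a multiple of −log10 p, so a p-value should not be computed back from a printed score. Per the labels' protocols, tissue was fixed with formaldehyde and chromatin sonicated to about 300 bp.

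Lists were merged and counted with pandas 2.3.3 and NumPy 2.4.6 under Python 3.11.15. Intervals came from SciPy 1.17.1 and plots from matplotlib 3.10.9. Counting recovered 2000 of 2000 simulated regions. These were set well apart with nearly aligned peaks, so they check the coding of the rule and not crowded places. On the real lists bedtools 2.31.1 gave the same 8733 regions. The regions and comparisons were chosen with earlier results of these data known. Regions named are the 10 highest by each 6 h score, the 5 widest, those in another silenced list and the 5 most even in rank. Also named are 5 on each side of the limit and the 3 densest 100 kb windows (4 with a tie). The 5 outside the limit were drawn from kept regions alone. Groups came from the sample titles. Floors are 3 counts of the total. No p-value was computed, with 1 library per condition. Alternatives changed overlap, score threshold, merging, gap, peaks and lists used. The planned gene positions, gene lists, motifs and region sequences were not analysed here, as the gene table at hand is on another build.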

Additional observations from a re-analysis of the deposited data

How the results depend on the processing

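The number of silencing-sensitive transient regions lay between 7853 and 10715 under 10 of 11 alternatives, 3 of them (a list not required to lack a peak) chosen after seeing the data. It was 1307 with a score of at least 20 in both unsilenced 6 h lists, where the median hepatectomy score was 30.45, the median width 556 bp and the median distance to the nearest other region 10938 bp, all of which a higher threshold shifts by its construction. With a score of at least 10 in every list these were 19.53, 506 bp and 5655 bp. An overlap of at least 50% with silenced peaks gave a score of 16.41 and a width of 481 bp. Merging peaks within 500 bp gave 487 bp and 6426 bp, and a gap of 1 kb to the lists to be avoided gave 5414.5 bp. The share with a silenced 48 h peak stayed between 0.0127% and 0.0765%, and that with a silenced basal peak at 0%, in the 7 alternatives that could give them. Where no peak in any of the 3 silenced lists was allowed, both shares are 0 by construction and were not computed. The weighted share of 15.1% was 18.5% with sham deciles, also chosen after seeing the data. No paired analysis was possible because each condition has 1 library. Depth per library is unknown, so an uncalled peak was not detectable at this depth, not shown to be absent.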
